A study of Mus musculus with 9 samples.

Results

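Por, Alas1, Cyb5a, Cyb5r3, Nr1i2, Nr1i3, Ahr and Rxra encode the electron donor of the microsomal cytochromes P450, 2 proteins of the cytochrome b5 chain, the first enzyme of heme synthesis and 4 receptors or receptor partners that sense foreign compounds. They were followed in the liver of fructose-fed rats. The genes were taken from the deposited count table by exact gene name and are 8 of its 19686 genes. Por was picked because its level was low in both fructose groups, so its levels against the control group are given as a description and support nothing. Its mean level was 30.6% of the control mean under fructose alone and 39.1% under fructose with the extract. Against the control group, Alas1 and Cyb5r3 fell in the HME group. Cyb5r3 no longer passed the test when any 1 of the 6 rats was left out, nor did Alas1 without any 1 of 5 of them. None of the 4 receptor genes passed the test in any comparison, whereas Cyp3a23/3a1 and Gstm1, from a list of targets of the receptors PXR and CAR, rose in the HME group against the control group. Gstm1 no longer passed when any 1 of the 6 rats was left out.

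Liver RNA from 9 male Wistar rats was sequenced, 3 rats in each of 3 groups. The control rats drank purified water and received saline by gavage, the model rats drank 15% fructose in water and received saline by gavage, and the HME rats drank the same fructose water and received the 50% methanol extract of Danggui-Shaoyao-San, a formula of herbs, at 1.8 g/kg by gavage, for 8 weeks. The labels name the treated group DSS. The study's methods took only the 50% methanol extract, HME, to the transcriptome, and the group is called HME here. The species label reads mouse, but the strain label reads Wistar rat and the genes carry rat identifiers, so these are taken as rat livers. No gene was altered in any group, all rats were fasted for 12 h and anaesthetised with 5% chloral hydrate before the liver was taken, and the age of the rats and the hour of sampling are not given in the sources used here. Model against control addresses fructose, HME against model addresses the extract on a fructose background, and HME against control addresses both together. HME against control and model against control share the control rats, and HME against model shares rats with each of them.

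Microsomal cytochromes P450 are heme proteins of the endoplasmic reticulum that oxidise drugs, sterols and fatty acids. Each cycle needs electrons from NADPH, which cytochrome P450 oxidoreductase, the product of Por, passes on, and cytochrome b5 with its own reductase can supply an electron as well. Their heme is made in a pathway whose first and rate-limiting step in the liver is catalysed by Alas1. PXR (Nr1i2), CAR (Nr1i3) and the aryl hydrocarbon receptor (Ahr) sense foreign and endogenous compounds and raise the transcription of cytochromes P450 and of conjugating enzymes, PXR and CAR as partners of RXR alpha (Rxra). Por and Alas1 are themselves known as genes that PXR and CAR can induce in liver.

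The libraries held 14345819 to 26837227 counts on genes. Levels are CPM, the counts of a gene per 1e6 counts of the library, scaled to library sizes that edgeR normalised over the 9 libraries, and they are compared between rats and not between genes, because gene length was not used. The library labelled model replicate 1 stood apart on the second principal component, at -59.3 against -16.6 for the next model library, and Rxra and Cyb5a, which rest on it, are given with and without it. The hepatocyte markers gave the labelled tissue, since Alb alone took 9.91% to 12.8% of the counts in every library. The summed hepatocyte markers were higher in every model rat than in every control rat, at 173773 to 222429 CPM against 134817 to 172925 CPM. In the same rats the summed periportal markers were lower in the model group, at 5066 to 5793 CPM against 7593 to 8172 CPM. The pericentral sum was also lower, at 2150 to 2399 CPM against 2924 to 3493 CPM. These sums weigh the most abundant markers most, and the single markers were mixed. Of 9 pericentral markers, 2 were higher in every model rat than in every control rat and 2 were lower. Of 8 periportal markers, 1 was higher in this way and 4 were lower. Over all genes tested, 21.1% did not overlap in model against control. The periportal sum was also lower in every HME rat, 5228 to 7499 CPM, than in every control rat, beside the calls of Alas1 and Cyb5r3 in that comparison. The pericentral sum of the HME rats, 3079 to 4229 CPM, was higher in each of them than in any model rat and overlapped that of the control rats. Most single pericentral markers did not follow that sum in HME against model. Of 8 tested there, 3 had a positive and 5 a negative log2 fold change, with a median of -0.22. Without overlap between the rats, 1 of these markers was higher in HME and 2 were lower. Summed markers of stellate, endothelial, bile duct and red blood cells and of leukocytes with Kupffer cells overlapped between all 3 groups. The part of these differences in the results was not tested, and in bulk tissue fewer cells of a type and less RNA per cell cannot be told apart.

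A gene was called in a comparison when edgeR's quasi-likelihood test gave a Benjamini-Hochberg adjusted p of at most 0.01 over all genes tested and a log2 fold change of at least 0.5 in size. "Rose" and "fell" are used only for such genes. The p-values measure the spread between the 3 rats of each group, and an exact permutation test of 3 rats against 3 could not give a p under 0.1. All 8 genes passed the filter on low counts in each comparison. Por is left out of the counts of calls against the control group, because it was chosen on them. For model against control none of the other 7 was called by edgeR and 1, Alas1, by DESeq2, and 4 had an unadjusted p under 0.05 in edgeR. Of the 12486 genes tested there, edgeR called 0.0801% and DESeq2 called 256 genes. For HME against model none of the 8 was called by edgeR and none by DESeq2. There 3 had an unadjusted p under 0.05 in edgeR, as had 8.02% of all genes tested, and edgeR called 0.136% of all genes. An unadjusted p under 0.05 was given to 13.2% of the genes in model against control and to 24.3% in HME against control, which is the background for such counts further on. DESeq2 called 147 of 12502 genes in HME against model and 769 of 12633 in HME against control, the background for its counts further on. For HME against control 2 of the other 7 were called, Alas1 and Cyb5r3, both lower, where 1.48% of all genes tested were called and 0.823% were called lower. That count was 1, Alas1, without control replicate 3 and 0 without any 1 of the other 5 rats.

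**Figure D1:**
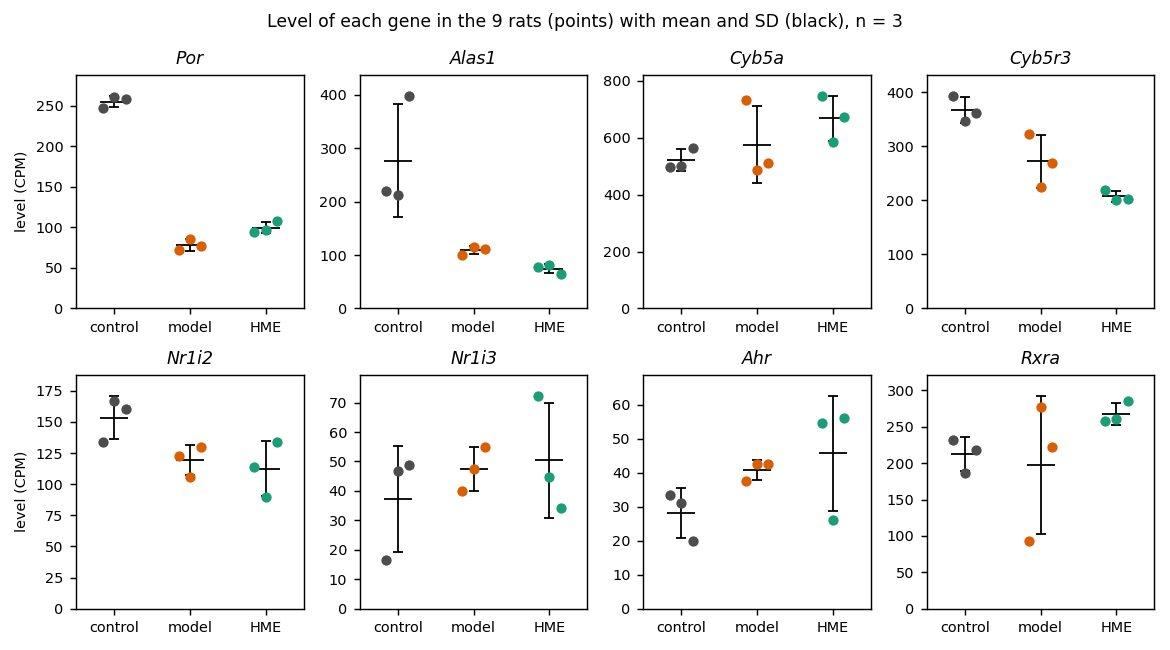
Level of each gene in CPM (y axis, from 0) in the control, model and HME rats (x axis), where each point is 1 rat and the black bar and whiskers are the mean and SD (n = 3). Por stood at 247 to 260 CPM in the control rats and at 71.6 to 108 CPM in the other 6 rats, Alas1 and Cyb5r3 stepped down from group to group, and the receptor genes overlapped between at least 1 pair of groups.

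Por (ENSRNOG00000001442), the NADPH-dependent reductase that feeds the microsomal cytochromes P450, stood at 247, 260 and 258 CPM in the control rats. In the model rats it stood at 71.6, 86.0 and 77.0 CPM, and in the HME rats at 94.3, 97.2 and 108 CPM. The control rats varied little among themselves and lay far above all fructose-fed rats, and the HME rats lay just above the model rats. The group means were 255 ± 7.19, 78.2 ± 7.27 and 99.9 ± 7.24 CPM (SD, n = 3). The log2 fold change was -1.71 (SE 0.13) for model against control and -1.36 (SE 0.11) for HME against control, the contrasts that chose the gene. Between HME and model, which the choice did not use, Por differed by 0.36 on the log2 scale (SE 0.13, 95% interval 0.06 to 0.66). That difference had the same sign in every pair of rats, but it did not pass the test (edgeR quasi-likelihood test, adjusted p = 0.523).

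Cytochrome b5, the product of Cyb5a (ENSRNOG00000015205), is the small heme protein that carries electrons to desaturases and to some cytochromes P450. Cyb5a stood at 496, 501 and 566 CPM in the control rats, at 731, 486 and 510 CPM in the model rats and at 746, 587 and 671 CPM in the HME rats. The first model rat was as high as the HME rats, while the other 2 model rats lay at the level of the control rats. Model and control did not differ beyond their spread (log2 fold change 0.15, SE 0.19, adjusted p = 0.786), and without model replicate 1 the value was -0.08. All HME rats were above all control rats, by 0.35 on the log2 scale (SE 0.13, 95% interval 0.06 to 0.65), which did not pass the test (adjusted p = 0.138). For HME against model the value was 0.22 (SE 0.20, adjusted p = 0.858), and 0.43 without model replicate 1.

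Cyb5r3 (ENSRNOG00000009592) encodes the NADH-dependent reductase of cytochrome b5. It stood at 394, 347 and 362 CPM in the control rats, at 323, 225 and 270 CPM in the model rats and at 219, 200 and 204 CPM in the HME rats. The 3 groups did not overlap, and the HME rats were the closest to one another. In the HME group Cyb5r3 fell by 0.83 against control on the log2 scale (SE 0.11, adjusted p = 0.00425). Leaving out any 1 of the 6 rats kept the direction and moved the adjusted p to between 0.0142 and 0.0177, above the threshold of 0.01. The 2 steps in between, -0.43 for model against control (SE 0.17, adjusted p = 0.324) and -0.39 for HME against model (SE 0.16, adjusted p = 0.612), did not pass the test.

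Other electron carriers of the same membranes and of mitochondria were covered by 9 tested genes of a list of 10. None was called in any comparison by edgeR, 4, 0 and 5 had an unadjusted p under 0.05 in model against control, HME against model and HME against control, and DESeq2 called 3 in the last of these and none in the others. Their median log2 fold changes were 0.28, 0.07 and 0.34, where the medians over all genes tested were -0.0011, 0.00078 and -0.0080. Pgrmc1, a heme-binding membrane protein that binds cytochromes P450, stood at 983, 1089 and 1124 CPM in the control rats, at 1606, 1210 and 1398 CPM in the model rats and at 1673, 1629 and 1641 CPM in the HME rats. All fructose-fed rats were thus above all control rats, the opposite side from Por, and the value of 0.63 for HME against control (SE 0.12) missed the call in edgeR (adjusted p = 0.0172). Its relative Pgrmc2 had 0.52 in that comparison (adjusted p = 0.028), and Cyb5r1, a relative of Cyb5r3, had 0.61 (adjusted p = 0.0863). Cyb5b of the same list, named after its values were seen, went the other way. It stood at 184 to 236 CPM in the control rats, 132 to 172 CPM in the model rats and 136 to 159 CPM in the HME rats. The 3 genes that DESeq2 called in HME against control were Cyb5b, lower, and Pgrmc1 and Pgrmc2, higher.

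Enzymes that draw electrons from Por or cytochrome b5 without acting on drugs were covered by 6 tested genes of a list of 7, with medians of -0.54, 0.28 and -0.23 in the 3 comparisons. Scd, the stearoyl-CoA desaturase that takes its electrons from cytochrome b5, stood at 8731 to 13965 CPM in the control rats, at 8043 to 9738 CPM in the model rats and at 57.1 to 213 CPM in the HME rats. In the HME group it fell by 6.11 on the log2 scale against model (SE 0.51, adjusted p = 0.00266) and fell by 6.51 against control (SE 0.61, adjusted p = 0.00532). The adjusted p rose to at most 0.0362 against model without any 1 of the model rats or HME replicate 1, and to at most 0.0347 against control without any 1 of the control rats or HME replicate 1, with log2 values of -6.00 to -6.66. With no filter on low counts neither Scd call held (adjusted p = 0.0116 against model and 0.0169 against control). Scd was the only gene of the list called by edgeR. Sqle, the squalene epoxidase that uses Por, had -0.71 for model against control (adjusted p = 0.0685), Msmo1, the sterol oxidase that uses cytochrome b5, had -0.70 (adjusted p = 0.121), and DESeq2 called both of them lower there.

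**Figure D2:**
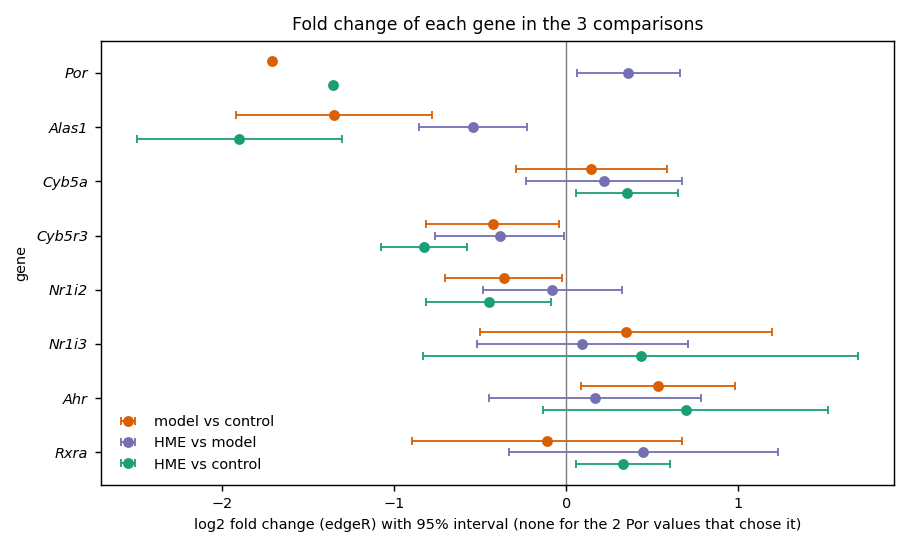
Log2 fold change (x axis) of each gene (y axis) for model against control, HME against model and HME against control, with the 95% interval of edgeR's fit; no interval is drawn for the 2 Por values on which the gene was chosen. The Alas1 and Cyb5r3 intervals all lie below 0, whereas the intervals of Nr1i3 and Rxra are wide and reach both sides of 0 in model against control.

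Alas1 (ENSRNOG00000056596), the first enzyme of heme synthesis, stood at 220, 212 and 398 CPM in the control rats. It stood at 100, 115 and 112 CPM in the model rats and at 77.6, 80.5 and 65.2 CPM in the HME rats. The groups did not overlap, and the third control rat was far above the other 2. In the HME group Alas1 fell by 1.90 against control on the log2 scale (SE 0.26, adjusted p = 0.00783). Without control replicate 3 the difference was -1.54 with an adjusted p of 0.000996. Without any 1 of the other 5 rats the adjusted p rose to between 0.0102 and 0.0378, above the threshold, and with the replicate number as a block it was 0.0297. Model against control gave -1.35 (SE 0.25), which did not pass edgeR's test (adjusted p = 0.0644) and was called by DESeq2 (adjusted p = 3.24e-05). Without control replicate 3 that value was -0.99. HME against model gave -0.54 (SE 0.14, 95% interval -0.85 to -0.23), lower in every HME rat and not past the test (adjusted p = 0.256). Control replicate 3 also had the highest sum of red blood cell markers of the 9 rats, 1190 CPM against 360 to 732 CPM in the others, and the part of this in its Alas1 level was not tested. Alas2, the enzyme of the red cell lineage, stood at 2.86 CPM there.

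The later enzymes of heme synthesis did not pass the test. All 8 enzymes were tested, and Alas1 in HME against control was the only call among them in the 3 comparisons by edgeR, while DESeq2 also called Alas1 in model against control. The other 7 had median log2 fold changes of -0.02, -0.16 and -0.24 for model against control, HME against model and HME against control, with lowest adjusted p of 0.527, 0.445 and 0.128. Alad, the second enzyme, had -0.24 for HME against control (adjusted p = 0.262). Ppox, the protoporphyrinogen oxidase, stood at 23.2 to 28.7 CPM in control, 26.9 to 31.9 CPM in model and 17.4 to 23.7 CPM in HME rats, with -0.51 for HME against model (adjusted p = 0.445). Fech, the ferrochelatase that places iron into the ring, stood at 56.8 to 57.0 CPM in control, 62.6 to 66.7 CPM in model and 63.3 to 74.9 CPM in HME rats. It was the one enzyme whose rats were all higher in both fructose groups than in control, with values of 0.19 and 0.26 that did not pass the test (adjusted p = 0.527 and 0.16).

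**Figure D3:**
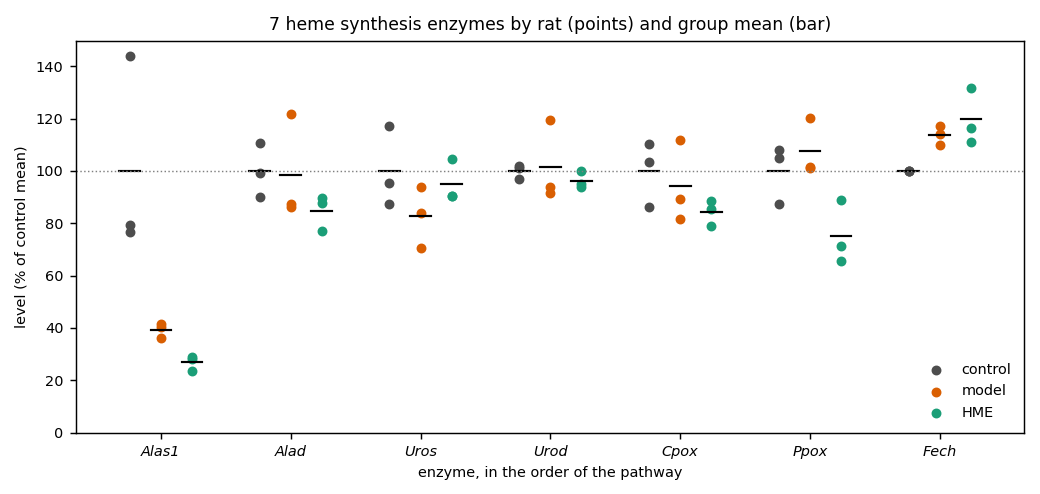
Level of 7 of the enzymes of heme synthesis in pathway order (x axis) as a percentage of each enzyme's control mean (y axis, from 0), with 1 point per rat and a bar at the group mean. Alas1 is the one enzyme whose fructose-fed rats all lie well under the dotted line at the control mean, and 1 control rat lies far above it.

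Heme breakdown and heme binding were covered by 8 tested genes with no call in any comparison by edgeR. Of them 2, 1 and 3 had an unadjusted p under 0.05 in the 3 comparisons, DESeq2 called 1, Hpx, in HME against control, and the medians were -0.02, 0.06 and 0.06. Hmox1, the inducible heme oxygenase, which also takes electrons from Por, averaged 26.0 ± 6.31, 22.7 ± 4.95 and 27.0 ± 6.29 CPM in control, model and HME rats (SD, n = 3), and its adjusted p ran from 0.764 to 0.913. Hpx, the plasma heme carrier hemopexin, was higher in all fructose-fed rats, with 0.68 for model against control (adjusted p = 0.283) and 0.58 for HME against control (adjusted p = 0.0333). Without model replicate 1 the value for model against control was 0.36.

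PXR, the product of Nr1i2 (ENSRNOG00000002906), is the receptor that induces the Cyp3a genes. Nr1i2 stood at 134, 167 and 160 CPM in the control rats, at 122, 106 and 130 CPM in the model rats and at 114, 89.6 and 134 CPM in the HME rats. Every model rat lay below the 3 control rats, while the HME rats reached up to the lowest control rat. The log2 fold changes were -0.36 for model against control (SE 0.15, adjusted p = 0.342), -0.08 for HME against model (SE 0.18, adjusted p = 0.943) and -0.45 for HME against control (SE 0.16, 95% interval -0.81 to -0.09, adjusted p = 0.124). None passed the test.

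Nr1i3 (ENSRNOG00000003260) encodes CAR, the receptor known for inducing the Cyp2b genes. It stood at 16.6, 46.6 and 48.8 CPM in the control rats, at 40.0, 47.5 and 54.9 CPM in the model rats and at 72.2, 44.8 and 34.2 CPM in the HME rats. The ranges of the groups all overlapped, with a low first control rat and a high first HME rat. The other HME rats lay below the other control rats. The log2 fold change was 0.35 for model against control (SE 0.37, adjusted p = 0.730) and -0.01 without control replicate 1. For HME against control it was 0.43 (SE 0.50, 95% interval -0.83 to 1.70, adjusted p = 0.661) and 0.08 without that rat. With 0.09 for HME against model (SE 0.27, adjusted p = 0.957), no order of the groups could be read for Nr1i3, and the intervals left room for changes of over 1 on the log2 scale against control.

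Ahr (ENSRNOG00000004342), the receptor for dioxin-like and indole compounds, stood at 33.4, 31.1 and 19.9 CPM in the control rats, at 37.6, 42.5 and 42.5 CPM in the model rats and at 54.6, 26.2 and 56.2 CPM in the HME rats. Every model rat lay above the 3 control rats, and the second HME rat lay among the controls while the other 2 were the highest of all. The log2 fold change was 0.54 for model against control (SE 0.20, adjusted p = 0.297), 0.17 for HME against model (SE 0.27, adjusted p = 0.919) and 0.69 for HME against control (SE 0.34, adjusted p = 0.275). Without HME replicate 2 the last value was 0.98 with an adjusted p of 0.0393, which is still no call.

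RXR alpha, the product of Rxra (ENSRNOG00000009446), is the shared partner of PXR, CAR and several metabolic receptors. Rxra stood at 232, 187 and 219 CPM in the control rats, at 93.2, 277 and 222 CPM in the model rats and at 258, 261 and 285 CPM in the HME rats. The first model rat was the lowest of the 9, while the other 2 model rats lay within or above the control range. The model group therefore had the widest spread, a coefficient of variation of 47.8% against 10.8% in control and 5.61% in HME. Model against control gave -0.11 (SE 0.34, adjusted p = 0.917), and 0.22 without model replicate 1, so the direction rests on that library. HME against model gave 0.45 (SE 0.34, adjusted p = 0.830), and 0.11 without it. All HME rats were above all control rats, by 0.33 on the log2 scale (SE 0.12, 95% interval 0.06 to 0.61, adjusted p = 0.134), a comparison that does not use the model rats.

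The spread between rats differed from gene to gene and sets what these comparisons can show. The coefficient of variation of Por was 2.82%, 9.30% and 7.25% in the control, model and HME groups, and that of Cyb5r3 was 6.56%, 17.9% and 4.90%. For Nr1i3 it was 48.3%, 15.7% and 38.9%, and for Ahr 25.8%, 7.02% and 36.9%. Alas1 varied by 37.9% in the control group, through the third rat, and by 7.11% and 10.9% in the fructose groups. The counts behind each value were not low, since Ahr, the gene with the fewest, had 298 to 1088 counts per library and Por had 1247 to 6161. For Nr1i3 and Ahr the spread between rats, not the depth, therefore set the width of the intervals.

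Across the 8 genes, the rats of the 2 groups did not overlap for 5 genes in model against control, Por, Alas1, Cyb5r3 and Nr1i2 lower and Ahr higher, where 21.1% of all genes tested did not overlap. In HME against model this held for 3 genes, Por higher and Alas1 and Cyb5r3 lower, against 14% of all genes. In HME against control it held for 5 genes, Cyb5a and Rxra higher and Por, Alas1 and Cyb5r3 lower, against 30.2%. Por was chosen on 2 of the 3 comparisons, so these counts are a description. Alas1 and Cyb5r3 were thus lowest in the HME rats, and Por was lowest in the model rats. The median log2 fold change of the 8 was -0.24, 0.13 and -0.06 in the 3 comparisons.

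The partners and coregulators of these receptors were covered by 14 tested genes of a list of 15, with medians of -0.13, -0.03 and -0.13. For HME against control edgeR called 1, lower, and it called none in the other comparisons. DESeq2 called 1, 0 and 2 in the 3 comparisons. Hsp90ab1, the chaperone that holds Ahr in the cytoplasm, stood at 953 to 1003 CPM in control, 724 to 768 CPM in model and 652 to 691 CPM in HME rats. The 3 groups did not overlap, and the log2 fold change was -0.55 for HME against control, which edgeR did not call (adjusted p = 0.0214). DESeq2 called it there (adjusted p = 1.49e-05), as did edgeR with library size alone (adjusted p = 0.00488). Arnt, the nuclear partner of Ahr, had -0.46 there (adjusted p = 0.0451), and Nr0b2, the repressor SHP, had 0.48 (adjusted p = 0.613).

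Other receptors that pair with RXR alpha were covered by 8 tested genes of 9 listed, with medians of 0.23, -0.29 and -0.04. None was called by edgeR in any comparison, 1, 2 and 3 had an unadjusted p under 0.05, and DESeq2 called 1, Ppard, in HME against control. There Ppard, a receptor for fatty acids, averaged 6.51 ± 0.78 CPM in HME against 13.1 ± 4.11 CPM in control rats (SD, n = 3; adjusted p = 0.0312 in edgeR's fit). Its relative Ppara had a log2 fold change of 0.63 (adjusted p = 0.102), and the retinoic acid receptor Rarb had -0.48 (adjusted p = 0.562).

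Among the known targets of PXR and CAR, 13 of 17 listed genes matched a name in the table and all 13 were tested. In HME against control edgeR called 2, both higher, and DESeq2 called 6. Of the 13, 12 had a positive log2 fold change, and the median was 1.01. In HME against model edgeR called none, 9 had an unadjusted p under 0.05, DESeq2 called 4, 12 were positive and the median was 0.72. The rats did not overlap and were higher in HME for 8 genes against model, where 6.17% of all genes tested did so, and for 6 against control, where 14.9% did. In model against control neither tool called any, 1 had an unadjusted p under 0.05, and the median was 0.15. Over all genes tested, 6267 of 12502 were positive in HME against model and 6200 of 12633 in HME against control. The list was chosen with earlier results of these data known, so its counts are a description. Against control, these targets except Cyp3a9 had positive values in the HME rats, and Alas1 had a negative one. The sign of Por there was fixed by its choice, and the activity of the receptors was not tested.

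Cyp3a23/3a1, a drug-metabolising cytochrome P450, stood at 603, 630 and 607 CPM in the control rats, at 1024, 520 and 540 CPM in the model rats and at 1739, 1670 and 1619 CPM in the HME rats. All HME rats were above the other 6, and the first model rat stood apart from its group. The gene rose in the HME group against control, by 1.45 on the log2 scale (SE 0.11, adjusted p = 0.000325), and gave 1.28 against model (SE 0.27, adjusted p = 0.141). Without model replicate 1, the library that stood apart, the value against model was 1.67 and was called (adjusted p = 0.00635). Cyp2b2 stood at 20.7, 44.3 and 13.8 CPM in control, 40.0, 33.9 and 42.4 CPM in model and 87.6, 123 and 101 CPM in HME rats. Again all HME rats were the highest, with 1.43 against model (SE 0.17, adjusted p = 0.0149) and 1.98 against control (SE 0.45, adjusted p = 0.0647), neither past the threshold. Without control replicate 2 the value against control was 2.58 and was called (adjusted p = 0.00201), and with no filter on low counts so was the one against model (adjusted p = 0.000938). DESeq2 called Cyp2b2 in both comparisons (adjusted p = 2.94e-10 against model and 0.0021 against control) and Cyp3a23/3a1 against model (adjusted p = 0.000387). Both genes have near-identical relatives, so their counts are uncertain as to the copy. Gstm1, a glutathione transferase with close relatives as well, averaged 829 ± 19.9, 917 ± 197 and 1438 ± 173 CPM (SD, n = 3). It rose in HME against control, by 0.79 (SE 0.13, adjusted p = 0.00943), a call that was lost without any 1 of the 6 rats (values of 0.71 to 0.89, adjusted p from 0.0127 to 0.0436). Cyp3a62, at 2.45 to 5.46 CPM in control and 11.4 to 19.7 CPM in HME rats, had 2.23 (adjusted p = 0.0147, and 2.71 with a call at 0.00186 without control replicate 3), and the carboxylesterase Ces2c, at 0.68 to 1.33 CPM in control and 2.43 to 2.92 CPM in HME rats, had 1.29 (adjusted p = 0.0444). DESeq2 called Cyp3a62 against control (adjusted p = 1.8e-09) and Ces2c against model (adjusted p = 0.000294), but not Ces2c against control. Ugt1a1, the bilirubin glucuronosyltransferase, with -0.01 against model, and Cyp3a9, with -0.0011 against control, were the exceptions to the sign and are named after their values were seen.

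**Figure D4:**
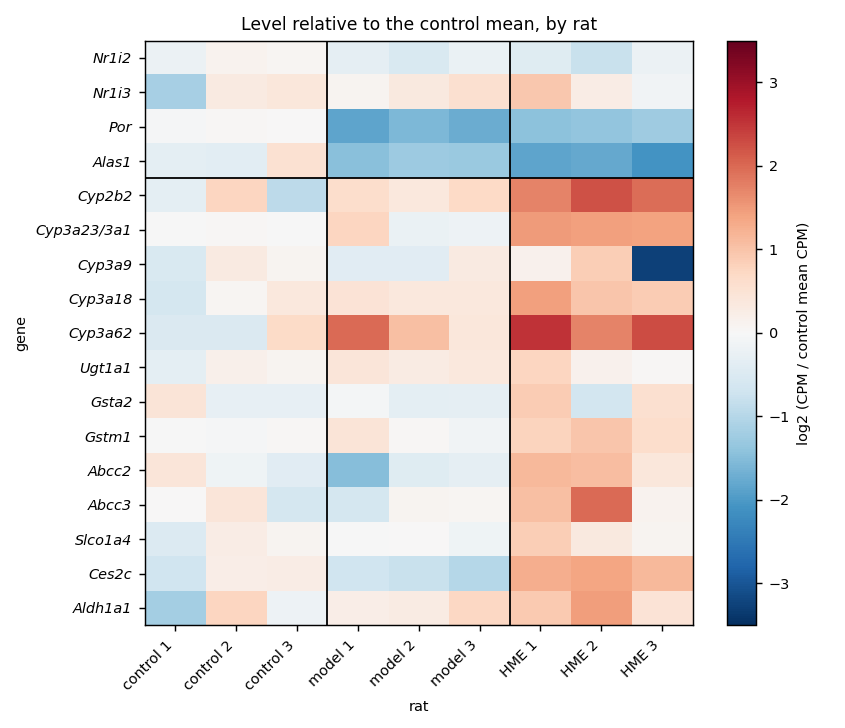
Level of Nr1i2, Nr1i3, Por, Alas1 and the 13 PXR and CAR targets (rows) in each of the 9 rats (columns), as log2 of the CPM over the gene's control mean, with red above and blue below it. Por and Alas1 are blue in all 6 fructose-fed rats, while Cyp2b2, Cyp3a23/3a1, Cyp3a62 and Ces2c are red in all 3 HME rats and Cyp3a9 is dark blue in HME replicate 3.

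Of the known targets of Ahr, 4 of 9 listed genes were tested and none was called by edgeR, with medians of -0.23, -0.11 and -0.67 in the 3 comparisons. An unadjusted p under 0.05 was found for 2, 1 and 2 of them, and DESeq2 called 1, Nqo1, in HME against control, where edgeR gave -0.80 (adjusted p = 0.0186). Cyp1a1, the classical target, stood at 0.53 to 2.15 CPM in the control rats, at 11.3, 0.71 and 0.62 CPM in the model rats and at 0.21 to 0.33 CPM in the HME rats. Its value of 1.93 for model against control (SE 1.12, adjusted p = 0.512) rests on model replicate 1, and without that rat it was -0.80. Cyp1a2, the main liver member, had -0.69 for model against control (adjusted p = 0.304).

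Por, Alas1 and Nr1i3 are known to follow a daily rhythm in liver that is driven by the clock and by the PAR bZIP factors Dbp, Tef and Hlf, and the hour of sampling is not given in the sources used here. Of 17 listed genes of this kind 15 were tested, with medians of -0.69, 0.02 and -0.40. In model against control edgeR called 1, Per2, DESeq2 called 4, and 10 had an unadjusted p under 0.05 in edgeR. In HME against model edgeR called none, DESeq2 called 3, and 5 had an unadjusted p under 0.05. In HME against control edgeR called 4, DESeq2 called 9, and 10 had an unadjusted p under 0.05. The edgeR calls in HME against control included Per2, Npas2 and Cry1. Per2, a clock repressor, stood at 80.3, 89.4 and 75.1 CPM in the control rats, at 14.4, 17.1 and 12.6 CPM in the model rats and at 15.3, 14.8 and 14.3 CPM in the HME rats. Against control it fell by 2.48 in the model group (SE 0.16, adjusted p = 0.00176, and up to 0.0234 without any 1 of the control rats, with values of -2.40 to -2.53) and fell by 2.46 in the HME group (SE 0.11, adjusted p = 1.87e-05). All fructose-fed rats were thus far below the control rats in Per2 as they were in Por, and the part of sampling time in the levels of Por and Alas1 was not tested.

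In HME against control Cry1 fell by 2.63 (SE 0.20, adjusted p = 0.000289). Npas2, a clock activator, rose by 2.59 (SE 0.33, adjusted p = 0.00373), and was not called without control replicate 1 or 3 or without HME replicate 1 or 3 (values of 2.37 to 2.71, adjusted p from 0.0115 to 0.0185). Of the PAR bZIP factors, the direct regulators, Hlf had -1.22 in HME against control (adjusted p = 0.0169), below the control rats in every HME rat. It was not called by edgeR as fitted here, but was called by DESeq2 (adjusted p = 0.000104), with library size alone (adjusted p = 0.00818) and with no filter on low counts (adjusted p = 0.00118). Dbp had 1.12 (adjusted p = 0.146) and was called higher by DESeq2 (adjusted p = 0.00407), and Tef had -0.19 (adjusted p = 0.332). In model against control Hlf, with -0.90 (adjusted p = 0.122), and Tef, with -0.78 (adjusted p = 0.225), lay below the control rats in every model rat and were not called by either tool.

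The genes with the pattern nearest to that of Por were found by the root mean square difference of log2 CPM, each gene centred on its own mean over the 9 rats, among 10101 genes with a mean count of at least 50. The nearest were Limk2, a kinase of the actin cytoskeleton, at 0.256, the RNA 3′-end processing factor Cstf3 at 0.270, the growth factor Fgf1 at 0.284, the cytokine Il33 at 0.298 and the plakin Ppl at 0.309. The median over all genes compared was 0.782. Limk2 averaged 44.6 ± 7.16, 19.2 ± 3.55 and 19.8 ± 1.29 CPM in control, model and HME rats (SD, n = 3), and Cstf3 averaged 13.9 ± 2.16, 5.21 ± 0.08 and 7.81 ± 1.13 CPM. Of the other 7 genes Alas1 was the nearest to Por, at 0.455 and in place 76, followed by Cyb5r3 in place 388 and Nr1i2 in place 593. Rxra, Cyb5a, Ahr and Nr1i3 were in places 6517, 7579, 9606 and 9662. The likeness is dominated by the step between the control rats and the others, and it is a description over 9 libraries.

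**Figure D5:**
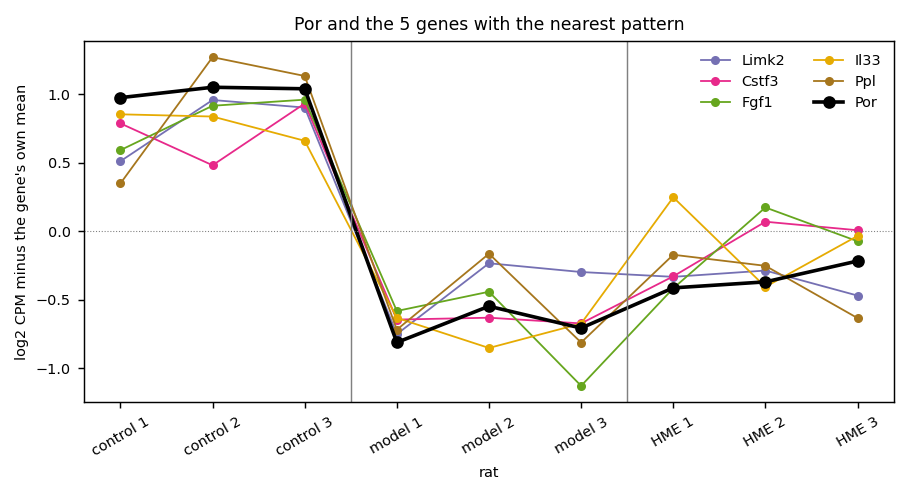
Log2 CPM minus the gene's own mean over the 9 rats (y axis) for Por in black and the 5 genes nearest to it in colour, by rat (x axis), with lines joining the points of a gene only as a guide. The 3 control rats lie between 0.35 and 1.27 for the 6 genes, and all points of the model rats lie below 0.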

How the data were processed

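Liver RNA of 9 rats was measured. Reads were aligned by the authors with HISAT2 2.0.5 and counted on exons by HTSeq 0.6.1 in its unstranded mode. The authors deposited these as raw counts per gene with no normalization. The submitters' processing notes name the build Rnor 6.0. Reads of overlapping antisense genes cannot be told apart, and copies such as the Cyp2b, Cyp3a and Gstm genes may share reads. No positions or sequences are given here. A file of unannotated transcripts was not used. Some genes of the lists, counted in the list totals, are not reported here.

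Each pair of groups was fitted alone (6 libraries) with edgeR 4.0.16 in R 4.3.3, with filterByExpr, TMM and the robust quasi-likelihood test, and DESeq2 1.42.0 was an alternative. The scripts were tested on simulated data. The members and lists were chosen with earlier results of these data known. Named genes were the 8 members, up to 3 genes per list with the largest fold change in any comparison and a mean of at least 1 CPM, list genes called in any comparison, genes of set role, and the 5 genes nearest to Por (prior count 2); Flvcr1, Slc48a1 and Nr1d1 met the rule and are described only within their lists. The groups share replicate numbers, but deviations of same-numbered rats correlated at -0.232 to -0.0206, so the numbers do not pair the rats.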

Additional observations from a re-analysis of the deposited data

How the results depend on the processing

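With Por, whose part in these counts was fixed by its choice, the count of members called in model against control was 1, and it was 2 with DESeq2, 0 with the replicate block and 0 to 1 when 1 rat was left out (0 without any 1 of the control rats or model replicate 3). In HME against control the count with Por was 3, 1 with the replicate block and 1 to 2 when 1 rat was left out, and Cyb5r3 was also lost with all 9 libraries in one fit (adjusted p = 0.0136) and Alas1 with no filter on low counts (adjusted p = 0.0128). In HME against model it was 0 under every setting run. The numbers of the replicates do not pair the rats (0 of 9 same-number pairs correlated above 0.1), and the replicate block moved the calls over all genes from 10 to 0, from 17 to 7 and from 187 to 104. DESeq2 called 256, 147 and 769 genes in the 3 comparisons, edgeR with no filter 71, 38 and 489, and all 9 libraries in one fit 25 in model against control and 113 in HME against control. An adjusted p of 0.05 gave 804 calls in HME against control, library size alone gave 11 in HME against model, and leaving out 1 rat gave 0 to 10, 2 to 12 and 86 to 132. Library size alone in place of TMM moved the median of all genes to -0.145 in model against control and -0.144 in HME against control. It gave Por -1.84 and -1.49 there, and turned the split of calls in HME against control from 83 higher and 104 lower to 57 and 181. It reversed Cyb5a (-0.018), Ppox (-0.048) and Gstm1 (-0.014) in model against control and Sqle (-0.12) and Hmox1 (-0.088) in HME against control. The replicate block reversed Nr0b2 (0.028) and Ppara (-0.052) in model against control and Sqle (-0.012) in HME against control. None of these reversed values was called under either setting.

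Leaving out 1 rat turned the sign of some values that were not called. In model against control the log2 fold change then ran from -0.082 to 0.25 for Cyb5a, -0.0088 to 0.59 for Nr1i3, -0.43 to 0.22 for Rxra, -0.24 to 0.38 for Nr0b2, -0.16 to 0.56 for Ppara, -0.062 to 0.58 for Rarb, -0.23 to 0.35 for Cyp3a23/3a1, -0.057 to 0.27 for Gstm1, -0.80 to 2.70 for Cyp1a1, -0.22 to 0.065 for Alad and -2.07 to 0.37 for Dbp. In HME against model it ran from -0.22 to 0.060 for Nr1i2, -0.26 to 0.31 for Nr1i3, -0.0069 to 0.45 for Ahr, -0.25 to 0.22 for Hpx, -0.059 to 0.73 for Nr0b2, -0.027 to 0.42 for Cyp1a2, -0.071 to 0.14 for Per2 and -0.29 to 0.14 for Arnt. In HME against control it ran from -0.19 to 0.24 for Sqle, -0.068 to 0.87 for Nr0b2 and -0.13 to 0.21 for Hmox1. Por kept its sign under every setting run, from -1.84 to -1.66 in model against control, 0.30 to 0.43 in HME against model and -1.49 to -1.31 in HME against control. The cause of these shifts was not tested. With 3 rats a group the spread between rats sets the limit for Nr1i3, Ahr and Rxra, and the wide range of the model rats for Rxra comes from 1 library.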
